A study of Mus musculus with 30 samples.

Results

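Whether the loss of myotubularin changed a gene differently in the heart and in the diaphragm was measured as the log2 fold change of Mtm1-/y over WT in the heart minus the same log2 fold change in the diaphragm, estimated in 1 fit of all heart and diaphragm libraries. A negative difference means that the change was more positive in the diaphragm, and a positive difference that it was more positive in the heart. The fit used 15 of the 30 libraries of the study, all those of the heart (4 WT and 4 Mtm1-/y) and of the diaphragm (4 WT and 3 Mtm1-/y, numbered 1, 2 and 4), and 17466 genes passed the filter on low counts. All mice were males of 5 weeks on a 129Pas background. The Mtm1-/y mice carry a constitutive knock-out of Mtm1, present in every organ, and the controls were WT littermates without any other stated allele or treatment. Each library of a group is a different mouse according to the study's methods, but whether hearts and diaphragms came from the same mice is not given in the sources used here. Whole tissues were extracted, so fewer cells of a type and less RNA per cell cannot be told apart.

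Myotubularin is a phosphatase that removes the 3-phosphate from phosphatidylinositol 3-phosphate, a lipid that marks endosomes, and its loss causes X-linked myotubular myopathy, a disease of skeletal muscle with weak, small fibres and displaced nuclei. The diaphragm is a skeletal muscle that works without rest for breathing, and the heart is a striated muscle of mononuclear or binucleate cardiomyocytes with little capacity to regenerate. Skeletal muscle answers damage, stretch or loss of nerve contact with programmes that include embryonic myosins, stretch-sensing proteins of the sarcomere, denervation genes and remodelling of the extracellular matrix.

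The libraries held 24873817 to 44289343 counts. Levels are given as CPM, a gene's counts relative to the TMM-scaled total of its library, differences and fold changes on the log2 scale ± their SE from edgeR, and an adjusted p with its tool. The knocked-out gene checked the labels. Mtm1 (ENSMUSG00000031337, chrX:71210767-71315691 of mm10) was at 25.1 to 31.6 CPM in WT heart and 4.11 to 4.86 CPM in Mtm1-/y heart, at 18.6 to 28.4 CPM in WT diaphragm and at 4.37 to 4.86 CPM in Mtm1-/y diaphragm. The Mtm1-/y libraries were below every WT library in both tissues, and the difference between the tissues, -0.31 ± 0.19, did not pass (edgeR adjusted p = 0.606, DESeq2 adjusted p = 0.65). Both tissues carried their defining markers. The summed level of 14 ventricular cardiomyocyte markers was 57500 to 74590 CPM in the hearts and 2025 to 4232 CPM in the diaphragms, and that of 15 skeletal myofibre markers was 65100 to 102400 CPM in the diaphragms and 1745 to 3594 CPM in the hearts.

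Hepatocyte RNA was present in the diaphragm libraries in very unequal amounts. The share was estimated in each library as the median, over 227 liver-specific genes, of the library's level as a percentage of the WT liver level. WT diaphragms 1 to 4 held 26.4%, 17.7%, 0.412% and 21.3%, and Mtm1-/y diaphragms 1, 2 and 4 held 3.13%, 32.7% and 0.654%. Heart libraries held 0.00567% to 0.0963%. The WT and Mtm1-/y diaphragms overlapped, with 3 of 4 WT libraries and 1 of 3 Mtm1-/y libraries above 10%. The summed level of 36 hepatocyte markers ran from 1109 to 64060 CPM in WT and from 1561 to 83630 CPM in Mtm1-/y diaphragm, against 83.9 to 308.7 CPM in the hearts. Genes that the liver makes therefore carry a large spread within each diaphragm group. For each gene the part of its diaphragm level that the hepatocyte share would supply was computed from its WT liver level, and the calls were repeated with that part subtracted and without the 4 libraries above 10%, an alternative that leaves 1 WT and 2 Mtm1-/y diaphragms and rests on the spread of the other groups.

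**Figure D1:**
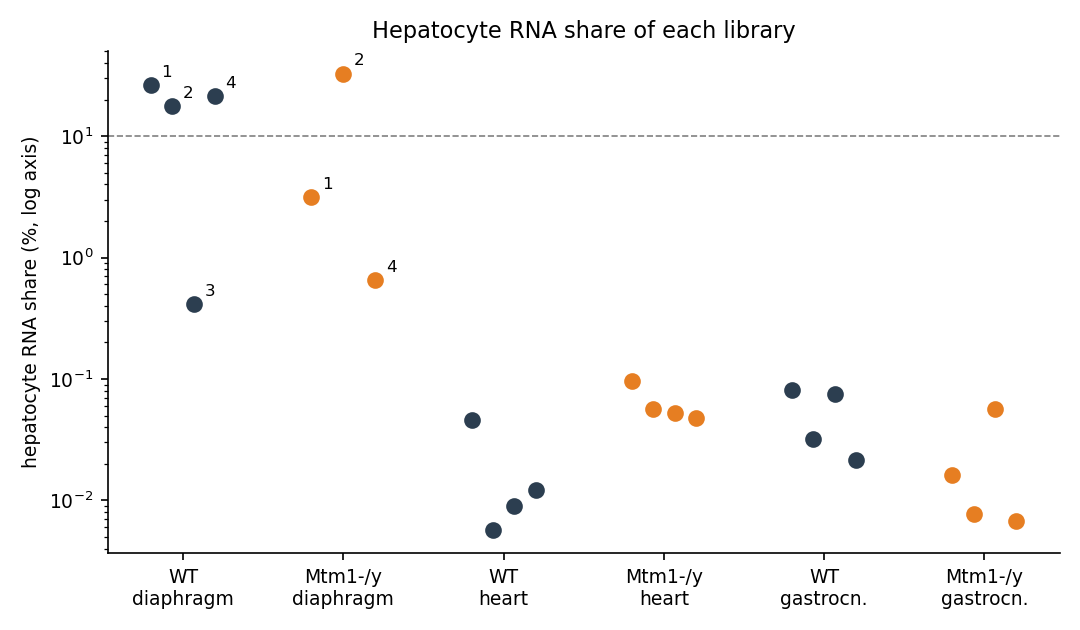
Hepatocyte RNA share of each diaphragm, heart and gastrocnemius library, in percent on a log axis, with 1 point per library, diaphragm replicate numbers beside the points and a dashed line at 10%. WT diaphragms 1, 2 and 4 and Mtm1-/y diaphragm 2 lie above the line, and every heart and gastrocnemius library lies below 0.1%.

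The heart libraries differed in a second way. Atrial cardiomyocyte genes, which mark the upper chambers, were uneven between hearts. Their level, the mean log2 CPM of Nppa, Myl7, Myl4, Sln and Bmp10, was 9.05, 4.63, 9.11 and 11.8 in WT hearts 1 to 4 and 1.66, 8.54, 1.14 and 2.99 in Mtm1-/y hearts 1 to 4. Myl7, the atrial regulatory light chain (chosen after its values were seen), was at 855, 45.5, 703 and 4968 CPM in the WT hearts and at 4.91, 1284, 1.30 and 9.67 CPM in the Mtm1-/y hearts. WT heart 4 was the highest and 3 of 4 Mtm1-/y hearts were the lowest, so the atrial level moved with the genotype while the groups overlapped. Over the 12 atrial markers the median difference was -2.50 and -1.18 without WT heart 4, and 0 were called. White adipocyte markers (22 tested, 0 called) had medians of -1.19 in the heart, -0.92 in the diaphragm and 0.09 for the difference (0.02 without WT heart 4 and 0.37 without Mtm1-/y diaphragm 2).

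By edgeR's quasi-likelihood test with Benjamini-Hochberg adjustment, 1 gene passed both thresholds, adjusted p below 0.05 and a difference beyond 1 in either direction, which is 0.00573% of the genes tested, and 1852 genes had an unadjusted p under 0.05. DESeq2, the study's own tool, on the same contrast and thresholds called 151 genes with a negative difference (0.865%) and 24 with a positive one (0.137%), and 2014 genes had an unadjusted p under 0.05. The counts below use the DESeq2 calls, with edgeR's adjusted p given for the genes described first. Each count of calls in a list stands beside 0.865% of all genes tested called below -1 and 0.137% called above 1. Over all genes tested the median difference was 0.00, with 8655 positive and 8811 negative.

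Most DESeq2 calls with a negative difference paired a higher level in Mtm1-/y diaphragm with a lower level in Mtm1-/y heart. Of the 151 genes, 139 had a positive log2 fold change in the diaphragm and a negative one in the heart, 11 were positive in both and 1 negative in both. The diaphragm held the larger of the effects in 124 of the 151 genes, with a median of 1.43 against -0.59 in the heart. Of the 24 genes with a positive difference, 19 were positive in the heart and negative in the diaphragm, 5 were negative in both, and the diaphragm effect was the larger in 22 (medians of 0.31 and -1.32). Since the calls were made on the difference, these directions describe them and test nothing. None of the 175 genes was liver-enriched, meaning at least 5-fold higher in WT liver than in WT gastrocnemius and WT heart.

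**Figure D2:**
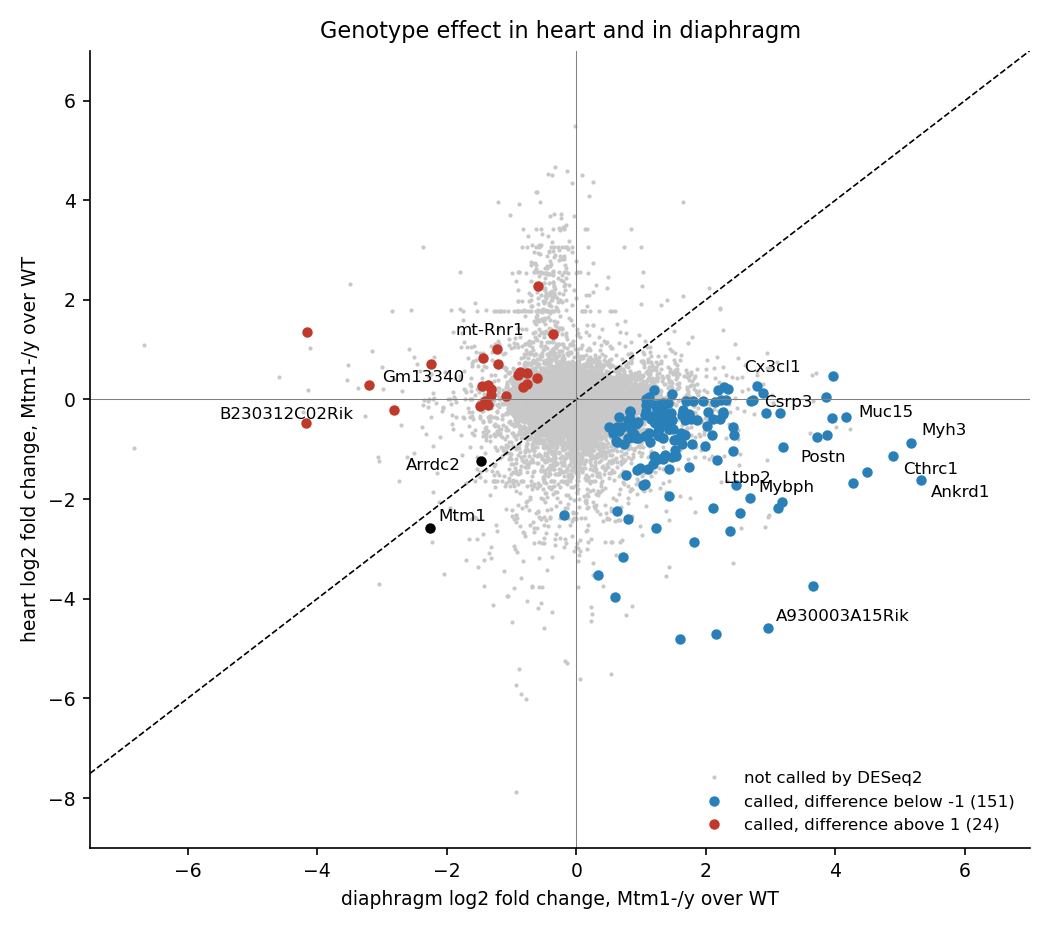
Log2 fold change of Mtm1-/y over WT in the heart (vertical axis) against the diaphragm (horizontal axis) for the 17466 genes tested, with the 151 DESeq2 calls below -1 in blue, the 24 above 1 in red, Mtm1 and Arrdc2 in black, and a dashed line where both effects are equal. Most blue points lie to the right of 0 on the diaphragm axis and at or below 0 on the heart axis, and Mtm1 and Arrdc2 lie near the line.

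Single libraries set how many genes passed. Without Mtm1-/y diaphragm 2, the library with the highest hepatocyte share, edgeR called 179 genes below -1 (1.00% of 17860 tested) and 42 above 1 (0.235%), and DESeq2 called 446 (2.55%) and 447 (2.56%). Of those 447, 314 were liver-enriched, and of the 446, 0 were. Of the 151 negative DESeq2 calls on all libraries, edgeR without that library shared 104, which is 68.9% of the 151 and 58.1% of its own 179. With the hepatocyte part subtracted DESeq2 called 244 genes below -1 (1.40%) and 87 above 1 (0.498%), with 144 of the 151 among the former, and without the 4 hepatocyte-rich diaphragms it called 181 (1.04%) and 37 (0.212%), with 78 of the 151. Without WT heart 4 the counts were 97 (0.555%) and 16 (0.0916%), with 89 of the 151. Of the DESeq2 calls with the hepatocyte part subtracted, 37 of the 87 and 12 of the 244 were liver-enriched. Among all genes tested 1392 of 17466 were.

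Fewer genes passed with the atrial level in the fit. With that level as a covariate of the hearts DESeq2 called 17 genes below -1 (0.0973%) and 6 above 1 (0.0344%), of which 14 and 3 were also called without it, and edgeR called 0, with 998 genes at an unadjusted p under 0.05. The atrial level and the genotype move together in these hearts, so their parts in the heart effect cannot be told apart fully. The genes called below -1 with and without the covariate include Postn, Timp1, Cthrc1, Ankrd1, Ltbp2, Ccn4, Cx3cl1 and Eda2r. The DESeq2 calls named in what follows number 51, of which 39 are below -1 and 12 above 1. With the atrial covariate 41 of them were lost, and those 8 genes, Gm13340 and B230312C02Rik were the 10 still called. Without the hepatocyte-rich diaphragms 11 of the 51 were lost, at adjusted p of 0.0531 to 0.294 in DESeq2 (Myh3, Myh8, 4930512H18Rik, B230312C02Rik, Olfr558, Timp4, Fst, Ryr3, Tgfbi, Tiam2 and Thbs4). Leaving out each library in turn ended 32 of the calls in at least 1 case, 28 of them without Mtm1-/y diaphragm 4, and 19 passed every time. The libraries, each left out alone, are named with each gene group, and edgeR called 1 of the 51.

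**Figure D3:**
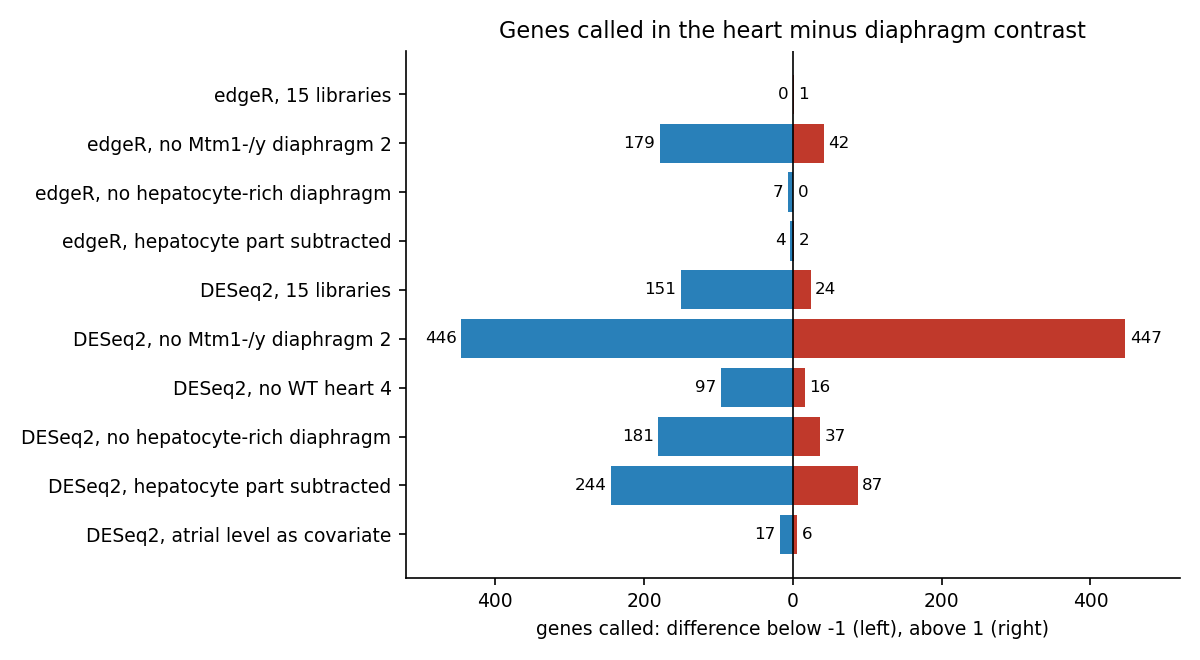
Number of genes called in the heart minus diaphragm contrast under 10 settings, with bars to the left for a difference below -1 and to the right for a difference above 1. The bars are longest for DESeq2 without Mtm1-/y diaphragm 2 (446 and 447) and nearly vanish for edgeR on all 15 libraries (0 and 1) and for DESeq2 with the atrial level as a covariate (17 and 6).

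The gene edgeR called was Gm13340 (ENSMUSG00000083563, chr2:22588103-22589647 of mm10, minus strand), an unprocessed pseudogene in the nuclear genome. It was at 14.4, 15.3, 14.9 and 10.7 CPM in WT hearts 1 to 4 and at 16.2, 13.9, 19.3 and 17.5 CPM in Mtm1-/y hearts 1 to 4. In the diaphragm it was at 16.3, 19.98, 19.6 and 19.1 CPM in the WT libraries and at 6.62, 5.78 and 8.01 CPM in Mtm1-/y libraries 1, 2 and 4. The Mtm1-/y diaphragms lay below every other library and the WT and Mtm1-/y hearts overlapped. The log2 fold change was 0.27 ± 0.14 in the heart and -1.46 ± 0.16 in the diaphragm, a difference of 1.73 ± 0.21 (edgeR adjusted p = 0.0253, DESeq2 adjusted p = 2.50e-10). With each library left out in turn the difference ran from 1.63 to 1.87, but edgeR's call was lost without any of WT diaphragms 2, 3 and 4, Mtm1-/y diaphragm 1, WT hearts 1 and 3 and Mtm1-/y hearts 3 and 4. It was lost too without the 4 hepatocyte-rich diaphragms (difference 1.67, edgeR adjusted p = 0.118) and with the atrial level as a covariate (difference 1.45, edgeR adjusted p = 0.183). The hepatocyte share would supply 37.6% of its level in Mtm1-/y diaphragm 2 and 10.1% or less in the other diaphragms.

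Gm13340 is a copy of the mitochondrial gene of cytochrome c oxidase subunit 1. Over their whole length of 1545 bases the pseudogene and mt-Co1 differ at 37 bases without a gap (97.6% identical), and 411 of 1496 windows of 50 bases, the read length, are the same in both (27.5%), with a longest shared run of 148 bases. Reads from such windows fit both places, so its counts rest on the differing bases. The first 120 bases of each show 3 of the differences, in capitals, from mm10 and on the coding strand.
Gm13340: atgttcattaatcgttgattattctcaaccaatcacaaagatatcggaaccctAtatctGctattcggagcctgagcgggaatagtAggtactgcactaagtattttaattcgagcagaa
mt-Co1: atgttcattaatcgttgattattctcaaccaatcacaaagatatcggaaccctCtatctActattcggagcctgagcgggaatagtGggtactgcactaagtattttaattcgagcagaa

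mt-Co1 itself (chosen after its values were seen) was far more abundant, at 42250 ± 8241 CPM in WT heart, 50490 ± 2222 in Mtm1-/y heart, 28140 ± 3665 in WT diaphragm and 21950 ± 367 in Mtm1-/y diaphragm (mean ± SD). Its difference, 0.62 ± 0.33, did not pass (edgeR adjusted p = 0.556, DESeq2 adjusted p = 0.107). The mitochondrial ribosomal RNAs also had positive differences. mt-Rnr1, the small ribosomal RNA of mitochondria, was at 10.4, 9.03, 9.61 and 3.55 CPM in WT heart and 16.4, 12.1, 14.6 and 22.4 CPM in Mtm1-/y heart, without overlap. In the diaphragm it was at 10.8, 14.04, 14.5 and 15.8 CPM in WT and 4.02, 7.64 and 6.15 CPM in Mtm1-/y, again without overlap and in the other direction (difference 2.23 ± 0.45, DESeq2 adjusted p = 0.000742, edgeR adjusted p = 0.177). With the atrial covariate mt-Rnr1 was not called (DESeq2 adjusted p = 0.103), and hepatocytes would supply 43.6% of its level in Mtm1-/y diaphragm 2 and 23.5% in WT diaphragm 1. mt-Rnr2, the large one, had a difference of 1.93 ± 0.55 (DESeq2 adjusted p = 0.0338), and Mtm1-/y diaphragm 2 was at 13.8 CPM beside 3.61 and 5.97 CPM in the other Mtm1-/y diaphragms. The DESeq2 call of mt-Rnr2 was lost with the atrial covariate (adjusted p = 0.601) and without WT diaphragms 2, 3 or 4, Mtm1-/y diaphragms 1 or 4 or Mtm1-/y hearts 1, 3 or 4 (largest adjusted p = 0.164). These RNAs have short poly-A tails and the kit selects poly-A RNA, so their level here is not their level in the cell. The part of mt-Rnr2 that hepatocytes would supply was 57.0% in Mtm1-/y diaphragm 2 and 22.3% to 42.0% in the hepatocyte-rich WT diaphragms.

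Genes of the developmental and stretch-responsive sarcomere gave 7 calls, some of genes abundant in the heart (Ankrd1, Csrp3 and Tnnt2) and others of genes nearly silent there (Myh3, Myh8 and Ankrd2). Of 21 tested genes of this list, DESeq2 called 7 below -1 and 0 above 1, and 4 below -1 without WT heart 4. Their median difference was -1.24 (all genes 0.00), with medians of -0.02 in the heart and 1.33 in the diaphragm. Ankrd1, a titin-bound ankyrin repeat protein that stretch induces, was at 589.8, 666, 720.0 and 3659 CPM in WT heart and 200, 482, 659 and 499.5 CPM in Mtm1-/y heart. In the diaphragm it was at 1.57, 7.85, 5.39 and 6.90 CPM in WT and 396, 31.2 and 222 CPM in Mtm1-/y. WT heart 4 stood far above the other hearts, and every Mtm1-/y diaphragm, the lowest of them replicate 2, was above every WT diaphragm. The difference was -6.93 ± 1.19 (DESeq2 adjusted p = 3.70e-06, edgeR adjusted p = 0.157), -5.83 without WT heart 4 and -5.75 with the atrial level as a covariate (DESeq2 adjusted p = 0.02).

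The muscle LIM protein Csrp3, a Z-disc protein, overlapped between WT and Mtm1-/y hearts. It was at 1301, 1397, 1324 and 1238 CPM in WT and 1152, 1279, 1366 and 1383 CPM in Mtm1-/y hearts. The diaphragms held 73.2, 262, 154 and 84.5 CPM in WT and 1501, 347 and 955 CPM in Mtm1-/y, without overlap, and Mtm1-/y diaphragm 1 was above every heart. Its difference of -2.73 ± 0.60 passed in DESeq2 (adjusted p = 0.00251) and not in edgeR (adjusted p = 0.184), and missed the threshold with the atrial covariate (DESeq2 adjusted p = 0.0562). Tnnt2, cardiac troponin T, which skeletal muscle makes in the embryo, was at 6134 to 8822 CPM in WT heart and 7974 to 9001 CPM in Mtm1-/y heart, at 0.984, 2.77, 1.95 and 4.31 CPM in WT diaphragm and at 8.76, 9.64 and 36.8 CPM in Mtm1-/y diaphragm (difference -2.74 ± 0.66, DESeq2 adjusted p = 0.00524). Tnnt2 was also the 1 gene called among 14 ventricular cardiomyocyte markers, whose median difference was -0.50. Ankrd2, the skeletal relative of Ankrd1, was at 18.6, 54.3, 47.2 and 20.01 CPM in WT and 529.6, 84.2 and 345 CPM in Mtm1-/y diaphragm and at no more than 0.317 CPM in any heart (difference -4.14 ± 1.17, DESeq2 adjusted p = 0.00524, 0.0669 without WT heart 4). The small heat shock protein Hspb1, a chaperone of the cytoskeleton, had a difference of -2.03 ± 0.49 (DESeq2 adjusted p = 0.0105). The DESeq2 call of Ankrd2 was also lost without Mtm1-/y diaphragm 4, and that of Hspb1 without Mtm1-/y diaphragm 1 (adjusted p = 0.0741).

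The embryonic myosin Myh3 was at 1.78, 4.09, 4.12 and 2.23 CPM in WT and 6.79, 65.01 and 259 CPM in Mtm1-/y diaphragm, without overlap but with a wide spread, and at 0.127 CPM or less in every heart. Its difference of -6.05 ± 2.27 passed in DESeq2 (adjusted p = 0.0132) and was lost without WT heart 4 (DESeq2 adjusted p = 0.0543), without the hepatocyte-rich diaphragms (0.143) and with the atrial covariate (0.421). The neonatal myosin Myh8 had a difference of -4.29 ± 1.16 (DESeq2 adjusted p = 0.0358), and its call was lost without WT diaphragms 1, 2 or 4, Mtm1-/y diaphragm 4, WT heart 4 or Mtm1-/y heart 1 (largest adjusted p = 0.149), without the hepatocyte-rich diaphragms (0.294) and with the atrial covariate (0.845). Without Mtm1-/y diaphragm 4 the call of Myh3 was lost as well (largest DESeq2 adjusted p without 1 library = 0.0781). In the hearts both myosins were close to 0, so a fold change there rests on a few counts per library. Mybph, a myosin-binding protein of fast fibres, was at 15.9 to 43.5 CPM in WT and 48.5 to 319 CPM in Mtm1-/y diaphragm (difference -4.66 ± 1.16, DESeq2 adjusted p = 0.00201). The slow-fibre light chain Myl6b, from a list of 17 slow-fibre genes with 0 called and a median difference of -0.22 (-0.40 without WT heart 4 and -0.39 without Mtm1-/y diaphragm 2), was at 10.8, 17.9, 17.8 and 11.99 CPM in WT and 52.8, 54.8 and 252 CPM in Mtm1-/y diaphragm, without overlap, and at 2.33 to 2.69 CPM in all hearts. DESeq2 gave Myl6b no adjusted p on all libraries and called it without Mtm1-/y diaphragm 2 (adjusted p = 3.55e-07) and with the atrial covariate (adjusted p = 0.0266). Of 18 fast-fibre genes 0 were called (median -0.15, 0.08 without WT heart 4 and -0.26 without Mtm1-/y diaphragm 2). Of 26 genes of the triad, the membrane junction that starts contraction, 1 was called (median -0.02, -0.08 without WT heart 4 and -0.16 without Mtm1-/y diaphragm 2), the calcium release channel Ryr3. Ryr3 was at 11.6, 2.34, 20.4 and 47.3 CPM in WT and 1.67, 3.38, 1.91 and 2.13 CPM in Mtm1-/y hearts (difference -3.88 ± 0.92, DESeq2 adjusted p = 0.00368). It was highest in WT hearts 1, 3 and 4, the WT hearts with the most atrial RNA. Mtm1-/y heart 2, whose atrial level of 8.54 was the highest of the Mtm1-/y hearts, held only 3.38 CPM. The DESeq2 adjusted p of Ryr3 was 0.785 with the atrial covariate, and its DESeq2 difference without the hepatocyte-rich diaphragms was -3.52.

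**Figure D4:**
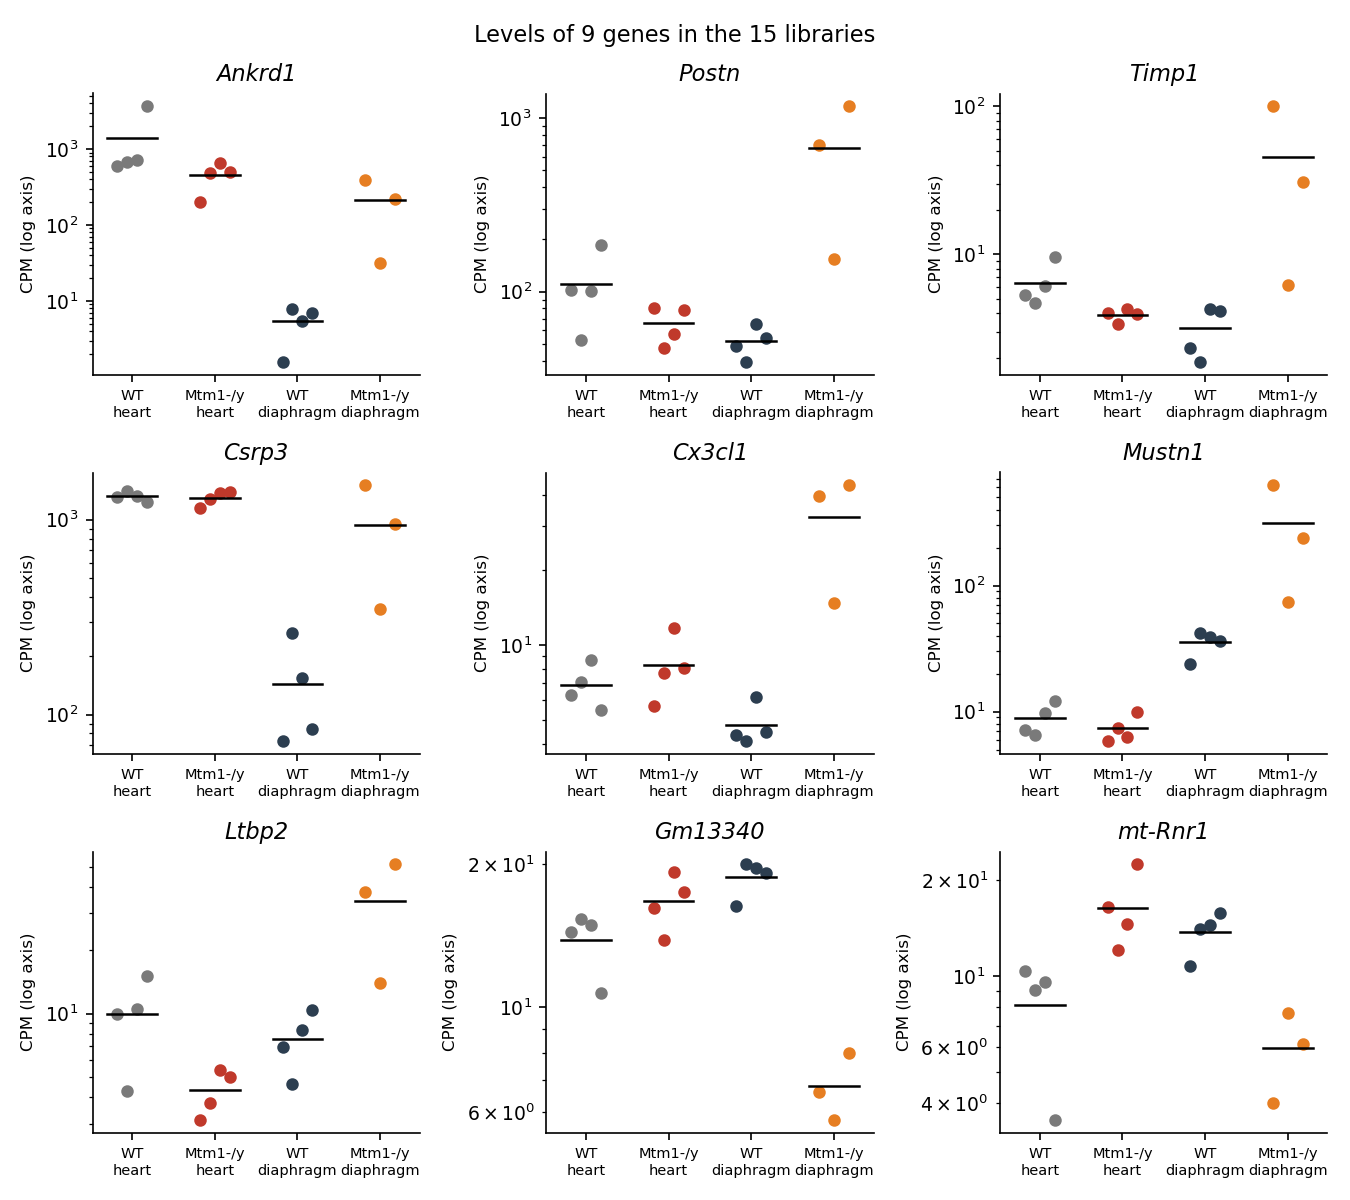
Levels of 9 genes in the 15 libraries, in CPM on a log axis that differs between panels, with 1 point per library and a line at the mean of each group. For Ankrd1, Postn, Timp1, Csrp3, Cx3cl1, Mustn1 and Ltbp2 the 3 Mtm1-/y diaphragms lie above the 4 WT diaphragms while WT and Mtm1-/y hearts overlap, except for Timp1, where every Mtm1-/y heart lies below every WT heart, and for Gm13340 and mt-Rnr1 the Mtm1-/y diaphragms lie below the WT diaphragms.

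Promoters of the genes called below -1 were read from RefSeq (GRCm38.p6, 250 bases before to 50 bases after the start) and searched for short motifs on both strands. Only the first start listed for each gene was used. A promoter entry was matched for 110 of the 151 genes and for 10 of the 24 called above 1. The MCAT motif, CATTCC on either strand, which TEAD factors of muscle and stretch signalling bind, was present in 22 of the 110 (20%), in 0 of the 10, in 12.4% of the 12366 promoters of tested genes and in 14.6% of all 27025 promoters. TATAAA was present in 16 of the 110 (14.5%) and in 8.42% of the promoters of tested genes (14.2% of all), and an E-box (CANNTG), the motif of myogenic factors, in 72 (65.5%) and in 64.9% (72.1% of all). The CArG box, the motif of serum response factor, was in 2 of the 110 (1.82%) and in 1.34% of the promoters of tested genes (1.57% of all). Among the 10 promoters of genes called above 1, an E-box was present in 9 (90%), TATAAA in 0 and the CArG box in 0. A match is a string of letters and no evidence of binding. The promoters read for Postn, Myh3 and Cx3cl1, also genes with a large difference, held no MCAT motif. Postn has 2 listed starts. Its window, chr3:54359017-54359316, lies before the annotated gene start at 54361109, and the sequence at that gene start was not searched. The promoters of Ankrd1 (chr19:36119795-36120094, minus strand) and Timp1 (chrX:20869916-20870215, plus strand) are shown as members with a large difference that hold the motif, with the reverse complement of CATTCC in capitals.
Ankrd1: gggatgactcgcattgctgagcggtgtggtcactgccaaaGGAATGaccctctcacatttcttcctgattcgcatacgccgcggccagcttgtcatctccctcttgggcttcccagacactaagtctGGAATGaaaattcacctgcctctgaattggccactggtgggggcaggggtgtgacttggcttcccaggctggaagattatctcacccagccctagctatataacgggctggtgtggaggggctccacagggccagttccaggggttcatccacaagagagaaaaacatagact
Timp1: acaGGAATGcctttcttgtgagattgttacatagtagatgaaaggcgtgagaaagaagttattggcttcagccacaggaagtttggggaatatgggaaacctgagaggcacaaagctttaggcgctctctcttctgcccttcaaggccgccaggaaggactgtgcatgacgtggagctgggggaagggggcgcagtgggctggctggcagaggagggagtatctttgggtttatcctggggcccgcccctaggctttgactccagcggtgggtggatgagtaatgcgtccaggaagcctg

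Of the 44 lists, the matrix list held the most calls. Of 31 tested matricellular and matrix-remodelling genes, which shape and sense the extracellular matrix, DESeq2 called 12 below -1 and 0 above 1 (Postn, Cilp, Thbs4, Tnc, Ccn2, Ccn4, Vcan, Lox, Loxl3, Loxl4, Timp1 and Adamts2), and 30 of 31 differences were negative or 0. Their median difference was -1.44, with -0.53 in the heart and 0.80 in the diaphragm. Without WT heart 4 the median was -1.015 and DESeq2 called 9 of them below -1. Postn, periostin, which activated fibroblasts secrete, was at 102, 52.9, 101 and 186 CPM in WT heart and 80.98, 47.5, 56.8 and 78.4 CPM in Mtm1-/y heart. Diaphragm levels were 48.3, 39.3, 65.1 and 54.2 CPM in WT and 704, 154 and 1173 CPM in Mtm1-/y, with all Mtm1-/y libraries above all WT libraries (difference -4.46 ± 0.72, DESeq2 adjusted p = 5.06e-07, edgeR adjusted p = 0.132). Timp1, an inhibitor of matrix metalloproteinases, was at 5.31, 4.69, 6.10 and 9.56 CPM in WT heart and 3.996, 3.38, 4.28 and 3.96 CPM in Mtm1-/y heart, where the Mtm1-/y libraries were all below the WT ones. Its diaphragm levels were 2.31, 1.87, 4.28 and 4.13 CPM in WT and 100.2, 6.16 and 30.8 CPM in Mtm1-/y (difference -4.58 ± 0.87, DESeq2 adjusted p = 4.20e-05, edgeR adjusted p = 0.163).

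Periostin and Timp1 therefore separated the genotypes in the diaphragm in every library, and their hearts lay on the other side or overlapped. Both passed in DESeq2 without WT heart 4, without the hepatocyte-rich diaphragms and with the atrial covariate (largest adjusted p = 0.0117, Timp1 with the covariate), and hepatocytes would supply at most 4.51% of the Postn level of any diaphragm and 2.32% of that of Timp1. Cthrc1, a secreted protein of collagen-making fibroblasts, was at 0.277, 0.236, 0.260 and 0.714 CPM in WT and 10.1, 1.23 and 21.8 CPM in Mtm1-/y diaphragm (difference -6.01 ± 1.08, DESeq2 adjusted p = 1.56e-05). Ccn4, a matricellular target of Wnt signalling, had a difference of -3.45 ± 0.60 (DESeq2 adjusted p = 3.69e-05), and hepatocytes would supply 52.5% of its level in WT diaphragm 1. Cilp, a matrix protein named by the study, was at 67.2, 46.2, 123 and 53.4 CPM in WT and 478, 144 and 426 CPM in Mtm1-/y diaphragm and at 7.57 to 10.8 and 6.25 to 10.8 CPM in WT and Mtm1-/y heart (difference -2.53 ± 0.54, DESeq2 adjusted p = 0.00181). The glycoproteins Tnc and Thbs4, both chosen after their values were seen and both made at tendon junctions and in repair, had differences of -3.50 ± 0.90 and -3.20 ± 0.78 (DESeq2 adjusted p = 0.00796 and 0.00557). For Thbs4 the call was lost without the hepatocyte-rich diaphragms (DESeq2 adjusted p = 0.168) and without Mtm1-/y diaphragm 4 (adjusted p = 0.0615), and for Tnc without Mtm1-/y diaphragm 1 (adjusted p = 0.143).

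Collagen chains shared a direction. Of 28 tested, 0 had a positive difference, DESeq2 called 8 (Col1a1, Col1a2, Col3a1, Col5a2, Col8a1, Col8a2, Col11a1 and Col12a1), and the median was -0.97, with -0.27 in the heart and 0.69 in the diaphragm. Without WT heart 4 the median was -0.80 and DESeq2 called 6 of them. Col1a1, the main fibrillar chain, was at 286, 174, 252 and 531 CPM in WT heart and 183, 193, 163 and 186 CPM in Mtm1-/y heart, which overlapped, with WT heart 4 the highest. The WT diaphragms were at 670.3, 239, 613 and 440.0 CPM and the Mtm1-/y diaphragms at 1362, 862 and 1491 CPM, without overlap (difference -2.12 ± 0.50, DESeq2 adjusted p = 0.00654). Col8a1, a network collagen of vessels and valves, was at 29.2 to 55.99 CPM in WT and 30.9 to 49.00 CPM in Mtm1-/y heart, and at 37.5, 22.5, 67.6 and 24.1 CPM in WT and 373, 69.9 and 307 CPM in Mtm1-/y diaphragm (difference -2.74 ± 0.66, DESeq2 adjusted p = 0.0063). Col12a1, which joins fibrils to the surrounding matrix, had a difference of -2.94 ± 0.68 and Col11a1 of -4.19 ± 1.05 (DESeq2 adjusted p = 0.00484 and 0.00511). Single libraries ended the DESeq2 calls of Col1a1 without Mtm1-/y diaphragm 4 (adjusted p = 0.0597), Col12a1 without Mtm1-/y diaphragm 4 (adjusted p = 0.0556), Col11a1 without Mtm1-/y diaphragm 4 (adjusted p = 0.111) and Col8a1 without Mtm1-/y diaphragms 1 or 4 (largest adjusted p = 0.0628). With the atrial covariate 0 of the 28 collagens and 3 of the 31 matricellular genes were called.

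Markers of the cells that make matrix leaned the same way. Of 15 fibroblast markers 5 were called below -1 (Lum, Col1a1, Col1a2, Col3a1 and Mfap5, of which 3 are also on the collagen list), the median was -0.87, and the summed level was 3414 to 6712 CPM in WT and 6480 to 11280 CPM in Mtm1-/y diaphragm, against 3723 to 9370 CPM in WT and 3759 to 4777 CPM in Mtm1-/y heart. Lum, a proteoglycan of collagen fibrils, was at 69.1, 48.1, 108 and 71.5 CPM in WT and 186, 124 and 309 CPM in Mtm1-/y diaphragm (difference -1.89 ± 0.42, DESeq2 adjusted p = 0.00524), and Mfap5, a microfibril protein, had a difference of -2.08 ± 0.46 (DESeq2 adjusted p = 0.00401). The part of the fibroblast number in the matrix calls was not tested. Of 17 genes of TGF-beta signalling, the pathway that drives matrix synthesis, 3 were called (median -0.57, with -0.53 in the heart), Ltbp2 and Tgfbi among them. Ltbp2, a latent TGF-beta binding protein of microfibrils, was at 9.95, 4.28, 10.6 and 15.2 CPM in WT and 3.12, 3.78, 5.42 and 4.99 CPM in Mtm1-/y heart and at 6.98, 4.61, 8.40 and 10.5 CPM in WT and 37.96, 13.9 and 51.3 CPM in Mtm1-/y diaphragm. Only WT heart 2 fell within the Mtm1-/y heart range, and the diaphragm groups did not overlap (difference -3.38 ± 0.61, DESeq2 adjusted p = 4.94e-05, edgeR adjusted p = 0.157). Tgfbi, a TGF-beta induced matrix protein, had a difference of -1.26 ± 0.29 (DESeq2 adjusted p = 0.0115). In DESeq2 the call of Tgfbi was lost without Mtm1-/y diaphragm 1 (adjusted p = 0.0741) and without the hepatocyte-rich diaphragms (0.0531), and that of Lum without Mtm1-/y diaphragm 4 (adjusted p = 0.0597).

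Of 30 integrin and focal adhesion genes 1 was called (median -0.20), Itga5, the fibronectin receptor subunit. It was at 110.3 to 125 CPM in WT and 103 to 137 CPM in Mtm1-/y heart, and at 40.4, 45.4, 39.1 and 37.7 CPM in WT and 124, 58.6 and 82.5 CPM in Mtm1-/y diaphragm, without overlap there (difference -1.07 ± 0.25, DESeq2 adjusted p = 0.0161), and the call was lost without Mtm1-/y diaphragms 1 or 4 (largest adjusted p = 0.0553). Itgb1, its partner subunit and a gene named by the study, had a difference of -0.56 ± 0.24 that did not pass (DESeq2 adjusted p = 0.332). Of 19 laminin and basement membrane genes 0 were called (median -0.38).

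Denervation genes leaned to the diaphragm while genes of the synapse did not pass. Of 18 denervation-responsive genes DESeq2 called 6 below -1, among them Runx1, Ncam1, Mustn1, Eda2r and Arpp21, and 0 above 1, with a median difference of -0.88 and medians of -0.14 in the heart and 0.99 in the diaphragm. Mustn1, a small nuclear protein of the muscle and skeleton, was at 6.56 to 12.2 and 5.85 to 9.97 CPM in WT and Mtm1-/y heart and at 23.8, 42.4, 39.04 and 36.3 CPM in WT and 624, 73.9 and 238 CPM in Mtm1-/y diaphragm (difference -3.41 ± 0.69, DESeq2 adjusted p = 0.000429, 0.0616 with the atrial covariate). Ncam1, an adhesion molecule that denervated fibres display, was at 17.6, 10.96, 22.6 and 26.9 CPM in WT and 12.03, 19.8, 8.47 and 7.003 CPM in Mtm1-/y heart. In the diaphragm Ncam1 was at 10.7, 13.00, 18.2 and 12.7 CPM in WT and 46.2, 28.03 and 100.1 CPM in Mtm1-/y (difference -2.81 ± 0.60, DESeq2 adjusted p = 0.00179). The hearts with high Ncam1 were those with high atrial genes, and with the atrial covariate its adjusted p from DESeq2 was 0.167. Eda2r, the receptor of ectodysplasin A2, overlapped in the hearts (3.86 to 7.11 CPM in WT and 5.10 to 7.99 CPM in Mtm1-/y) and was at 11.4, 17.6, 22.2 and 13.2 CPM in WT and 85.9, 34.8 and 99.4 CPM in Mtm1-/y diaphragm, without overlap (difference -1.996 ± 0.45, DESeq2 adjusted p = 0.00604, 0.0117 with the covariate), and DESeq2 lost the call without Mtm1-/y diaphragm 4 (adjusted p = 0.0709). Of 17 genes of the acetylcholine receptor and the neuromuscular junction 0 were called (median -0.34), and Chrnb1, the beta subunit of the receptor, was at -0.60 ± 0.25 (DESeq2 adjusted p = 0.348). Of 16 ubiquitin ligase and atrophy genes 0 were called (median -0.01, Asb2, a ligase subunit, at 0.67 ± 0.29). Of 16 myogenic regulators and satellite cell genes 0 were called, although their median was -1.35 and -0.99 without WT heart 4. That median lay mostly in the heart, at -0.97 there and 0.29 in the diaphragm. The summed level of the list was 98.5 to 291.8 CPM in WT heart against 3577 to 4965 CPM in WT diaphragm. Igf2, a growth factor of developing muscle, had the smallest p of that list (difference -1.70 ± 0.54, DESeq2 adjusted p = 0.102).

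Signals to immune cells and stress genes gave a few calls. Of 33 chemokine, NF-kB and TNF receptor genes DESeq2 called 2 below -1, Cx3cl1 and Eda2r, with a median of -0.57. Without Mtm1-/y diaphragm 2 the median was -0.95 and DESeq2 called 10 below -1 and 1 above 1. Cx3cl1, the membrane-bound chemokine fractalkine, was at 6.28, 7.13, 8.69 and 5.48 CPM in WT heart and 5.70, 7.69, 11.7 and 8.11 CPM in Mtm1-/y heart. In the diaphragm it was at 4.33, 4.11, 6.17 and 4.46 CPM in WT and 39.8, 14.7 and 43.8 CPM in Mtm1-/y. The hearts overlapped, every Mtm1-/y diaphragm was above every WT one, and the difference was -2.51 ± 0.45 (DESeq2 adjusted p = 0.000134, edgeR adjusted p = 0.157, DESeq2 adjusted p = 0.00391 with the atrial covariate). Of 10 MHC class II genes, which present antigen, 1 was called (median -0.83), the peptide-loading chain H2-DMb1 (difference -1.22 ± 0.29, DESeq2 adjusted p = 0.0184). Of 21 macrophage and complement C1q genes 0 were called (median -0.44, Fcgr1, an antibody receptor, at -1.61 ± 0.57), but without the hepatocyte-rich diaphragms DESeq2 called 10 of these 21 and 7 of the 10 MHC class II genes below -1. With the hepatocyte part subtracted instead, DESeq2 called 0 of the 21 and 2 of the 10. The fit without the hepatocyte-rich diaphragms keeps WT diaphragm 3 as the only WT diaphragm. That library had the lowest summed level of the WT diaphragms for both lists, 460.0 CPM against 518.7 to 1013 CPM for the macrophage genes and 169.1 CPM against 226.6 to 356.9 CPM for the MHC class II genes, and its part in these calls was not tested. Of 25 p53 and integrated stress response genes 3 were called (median -0.14), Phlda3, a p53 target (-1.33 ± 0.33), the stress transcription factor Atf3 (-2.32 ± 0.66) and Mthfd2, a mitochondrial folate enzyme (-1.33 ± 0.35), with DESeq2 adjusted p of 0.0237, 0.0359 and 0.0338. Single libraries ended these DESeq2 calls. That of H2-DMb1 was lost without WT diaphragm 2, Mtm1-/y diaphragms 1 or 4, WT heart 1 or Mtm1-/y heart 4 (largest adjusted p = 0.122). Phlda3 was lost without WT diaphragms 1 or 4, Mtm1-/y diaphragms 1 or 4, WT hearts 1 or 4 or Mtm1-/y hearts 3 or 4 (largest adjusted p = 0.136), Atf3 without WT diaphragms 1, 2 or 4, Mtm1-/y diaphragm 1, WT hearts 1, 3 or 4 or Mtm1-/y hearts 1 to 4 (largest adjusted p = 0.09), and Mthfd2 without WT diaphragms 2, 3 or 4, Mtm1-/y diaphragms 1 or 4, WT hearts 1 or 3 or Mtm1-/y hearts 3 or 4 (largest adjusted p = 0.188).

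Of 16 genes of myostatin, follistatin and activin signalling 2 were called below -1 (median -0.08, -0.15 without Mtm1-/y diaphragm 2). Fst, follistatin, which binds and blocks myostatin, was at 2.17, 1.36, 2.49 and 3.86 CPM in WT heart and 1.82, 1.59, 1.55 and 0.952 CPM in Mtm1-/y heart. Its diaphragm values were 8.08, 9.57, 13.6 and 10.9 CPM in WT and 21.3, 15.5 and 28.8 CPM in Mtm1-/y, without overlap (difference -1.80 ± 0.44, DESeq2 adjusted p = 0.0155, edgeR adjusted p = 0.186). DESeq2 lost the call of Fst without WT diaphragm 2, Mtm1-/y diaphragms 1 or 4 or Mtm1-/y heart 4 (largest adjusted p = 0.118), without the hepatocyte-rich diaphragms (0.128) and with the atrial covariate (0.573). The related Fstl1 had a difference of -1.54 ± 0.42 (DESeq2 adjusted p = 0.0345, edgeR adjusted p = 0.208), and DESeq2 lost the call with the atrial covariate (0.524) and without WT diaphragms 1, 2 or 4, Mtm1-/y diaphragms 1 or 4, WT hearts 1, 3 or 4 or Mtm1-/y hearts 2, 3 or 4 (largest adjusted p = 0.208). Mstn, myostatin itself, had log2 fold changes of -1.67 ± 0.51 (heart) and -1.70 ± 0.47 (diaphragm) and a difference of 0.02 ± 0.67 by DESeq2 that did not pass (adjusted p = 0.996). Arrdc2, an alpha-arrestin that was lower in Mtm1-/y in both tissues (-1.24 ± 0.28 in the heart and -1.47 ± 0.31 in the diaphragm), had a difference of 0.23 ± 0.41 (DESeq2 adjusted p = 0.907). Of the 5 alpha-arrestins 0 were called (median 0.11, 0.23 without WT heart 4, Arrdc4 at 0.30 ± 0.18). Dnm2, dynamin 2, which pinches vesicles from membranes, had a difference of -0.03 ± 0.10 (DESeq2 adjusted p = 0.97), the smallest SE of the genes named by the study. Of 10 dynamins and amphiphysins 0 were called (median 0.05, -0.04 without WT heart 4, Dnm1, the neuronal dynamin, at -0.84 ± 0.24), and of 22 myotubularins and enzymes of phosphatidylinositol 3-phosphate 0 (median -0.02, Mtmr11 at -0.86 ± 0.25). Tiam2, a Rac exchange factor named by the study, had a difference of -1.89 ± 0.51 (DESeq2 adjusted p = 0.0343), and DESeq2 lost the call without WT diaphragms 1, 2 or 4, Mtm1-/y diaphragms 1 or 4, WT hearts 1 or 4 or Mtm1-/y hearts 1 or 4 (largest adjusted p = 0.208) and without the hepatocyte-rich diaphragms (0.0941).

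Genes of energy metabolism had positive differences that were small and, gene by gene, not called. Of 37 tested genes of respiratory complex I, 34 had a positive difference (median 0.26, with 0.12 in the heart and -0.18 in the diaphragm), of 43 of complexes II to V, 40 (median 0.31), and of 29 of fatty acid oxidation, 28 (median 0.40, with 0.19 in the heart and -0.21 in the diaphragm). Without WT heart 4 these medians were 0.15 for complex I, 0.20 for complexes II to V and 0.30 for fatty acid oxidation. DESeq2 called 0 genes in each of these lists. Ndufab1, a complex I subunit and acyl carrier protein, was at 59.7, 57.7, 57.05 and 51.6 CPM in WT and 67.3, 62.7, 61.95 and 61.5 CPM in Mtm1-/y heart, without overlap. Diaphragm values were 51.5, 56.6, 64.5 and 55.5 CPM in WT and 47.2, 47.9 and 49.2 CPM in Mtm1-/y, also without overlap and in the other direction. Its difference of 0.41 ± 0.11 had a DESeq2 adjusted p of 0.0347 and was under the size threshold of 1. Lpl, lipoprotein lipase, which frees fatty acids for uptake, had a difference of 0.87 ± 0.30, and Sdha, the flavoprotein of complex II, of 0.59 ± 0.22 (DESeq2 adjusted p = 0.105 and 0.161). Of 21 antioxidant enzymes 0 were called (median 0.09), and without Mtm1-/y diaphragm 2 the median was 0.55 with 1 called above 1. Sod2, the mitochondrial superoxide dismutase named by the study, was at 409.7, 465, 409 and 267 CPM in WT and 473, 439, 509 and 469.9 CPM in Mtm1-/y heart and at 278, 302, 340.2 and 290.2 CPM in WT and 225, 267 and 232 CPM in Mtm1-/y diaphragm. Its difference of 0.61 ± 0.21 did not pass on all libraries (DESeq2 adjusted p = 0.131). For Ndufab1, Lpl, Sdha and Sod2 alike WT heart 4, the library with the most atrial RNA, was the lowest of the WT hearts, and with the atrial covariate none of these 4 passed in DESeq2 (smallest adjusted p = 0.507).

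**Figure D5:**
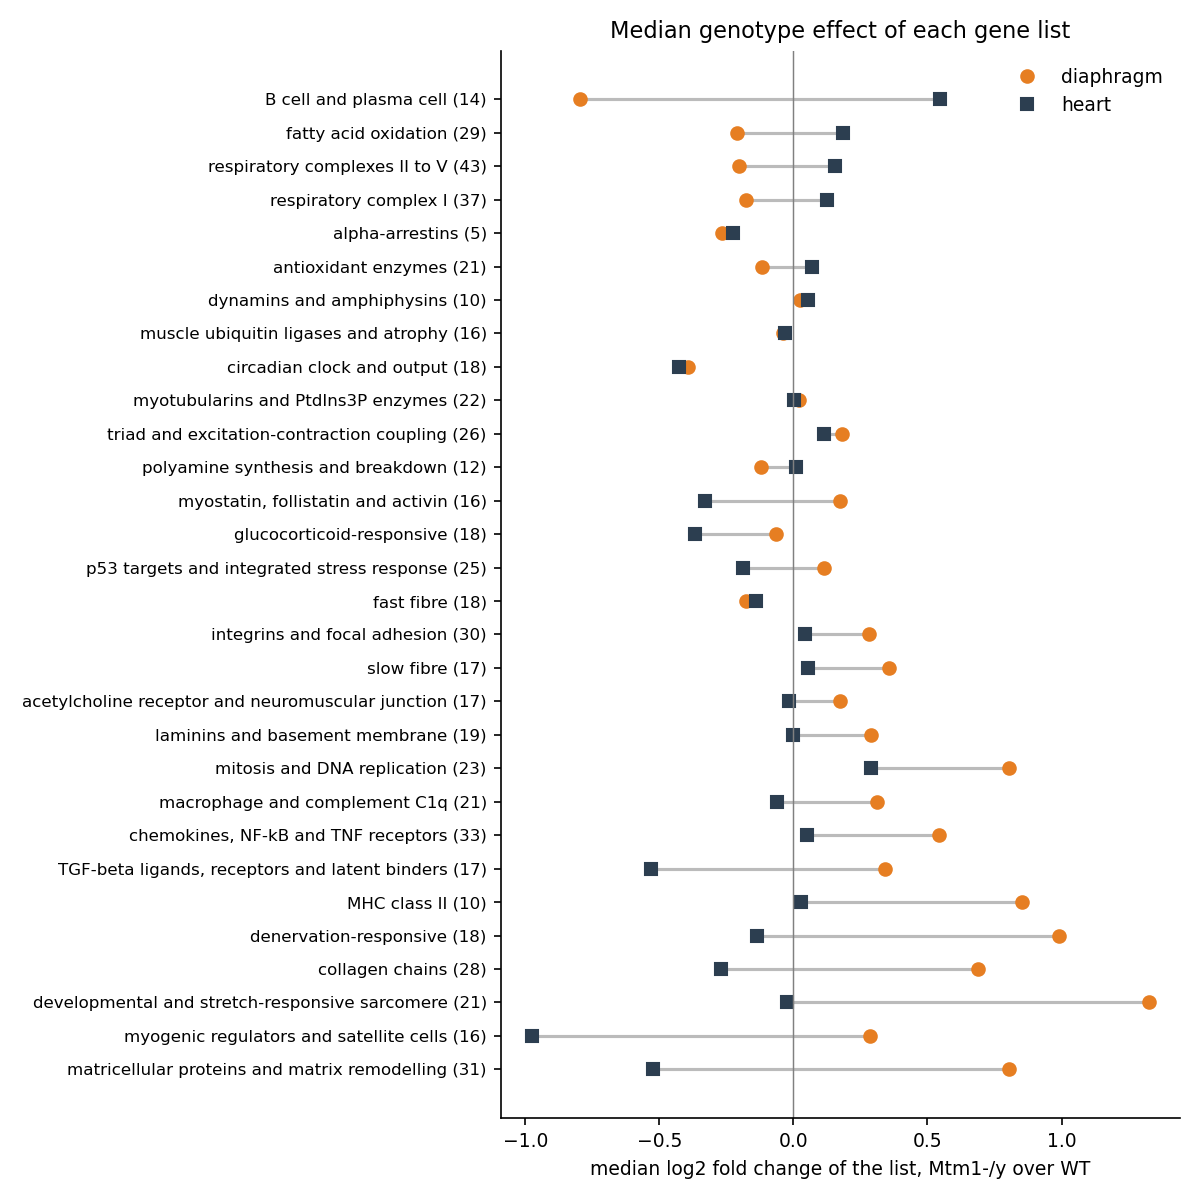
Median log2 fold change of Mtm1-/y over WT in the diaphragm (circles) and in the heart (squares) for each pathway list, with the number of genes tested in parentheses and lists ordered by the median difference. The matricellular, collagen, sarcomere and denervation lists lie right of 0 in the diaphragm and at or left of 0 in the heart, and the respiratory and fatty acid lists lie the other way by a smaller amount.

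The 24 genes called above 1 were mostly lower in Mtm1-/y diaphragm. Besides Gm13340 and the mitochondrial ribosomal RNAs they include Timp4, an inhibitor of metalloproteinases of the heart and fat, at 76.1, 63.8, 67.1 and 87.3 CPM in WT and 25.1, 38.6 and 25.3 CPM in Mtm1-/y diaphragm and at 45.5 to 87.5 and 48.6 to 99.1 CPM in the WT and Mtm1-/y hearts (difference 1.41 ± 0.37, DESeq2 adjusted p = 0.0214). Timp1 and Timp4, relatives in the same family, thus had opposite differences. Mylk4, a myosin light chain kinase of striated muscle, was at 142, 253, 225 and 103 CPM in WT and 65.99, 58.01 and 70.2 CPM in Mtm1-/y diaphragm, with overlapping hearts (difference 1.36 ± 0.37, DESeq2 adjusted p = 0.0347). Lnx1, a ubiquitin ligase of the Numb protein, had a difference of 1.53 ± 0.38, Ybx2, a Y-box RNA-binding protein, of 1.26 ± 0.31, and Slc30a2, a zinc transporter, of 1.15 ± 0.27 (DESeq2 adjusted p = 0.0131, 0.0153 and 0.0317). The noncoding B230312C02Rik was at 26.2, 29.7, 28.4 and 13.9 CPM in WT and 4.28, 3.35 and 2.84 CPM in Mtm1-/y diaphragm, without overlap, and at no more than 1.203 CPM in any heart (difference 2.60 ± 0.67, DESeq2 adjusted p = 0.0126). The olfactory receptor genes Olfr558 (1.41 ± 0.35) and Olfr78 (1.39 ± 0.36), both known outside the nose, and the unnamed locus Gm37691 (1.08 ± 0.26) were also called (DESeq2 adjusted p = 0.0209, 0.026 and 0.0166). Aqp7, the glycerol channel of fat cells and muscle, had a difference of 0.98 ± 0.24 that met the adjusted p of DESeq2 (0.0155) but not the size threshold.

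Single libraries ended these calls above 1 as well. DESeq2 lost Timp4 without WT diaphragm 4, Mtm1-/y diaphragms 1 or 4 or Mtm1-/y hearts 1 or 4 (largest adjusted p = 0.118) and Mylk4 without WT diaphragms 2 or 3, Mtm1-/y diaphragms 1 or 4, WT hearts 1 or 3 or Mtm1-/y hearts 3 or 4 (largest adjusted p = 0.111). Slc30a2 was lost without WT diaphragms 2 or 3, Mtm1-/y diaphragms 1 or 4, WT heart 1 or Mtm1-/y hearts 1, 3 or 4 (largest adjusted p = 0.104), Lnx1 without Mtm1-/y diaphragms 1 or 4 (largest adjusted p = 0.102), and Ybx2 without Mtm1-/y diaphragms 1 or 4 (largest adjusted p = 0.107). The call of B230312C02Rik ended without Mtm1-/y diaphragm 4 (adjusted p = 0.0777). Olfr558 was lost without WT diaphragm 2, Mtm1-/y diaphragm 4, WT hearts 1 or 4 or Mtm1-/y hearts 1 or 4 (largest adjusted p = 0.117) and Olfr78 without WT diaphragms 2 or 3, Mtm1-/y diaphragms 1 or 4, WT hearts 1 or 3 or Mtm1-/y heart 4 (largest adjusted p = 0.135). Gm37691 was lost by p or by size without WT diaphragms 2 or 3, Mtm1-/y diaphragms 2 or 4, WT heart 4 or Mtm1-/y heart 4 (largest adjusted p = 0.0626). B230312C02Rik, Timp4 and Olfr558 were not called without the hepatocyte-rich diaphragms either (DESeq2 adjusted p = 0.0798, 0.0797 and 0.0541).

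Some of the largest negative estimates rest on nearly silent hearts. Of the genes described above, Mybph was at 0 to 0.507 CPM in the hearts, Col11a1 at 0.0815 to 1.24 CPM and Cthrc1 at 0.222 to 1.52 CPM. Their heart log2 fold changes, -1.98, -1.72 and -1.13, rest on few counts. A930003A15Rik, a noncoding gene, was at 0 counts in all 4 Mtm1-/y hearts, so no fold change is given for the heart, and at 2.18, 2.79, 3.02 and 1.73 CPM in WT and 10.5, 9.38 and 36.6 CPM in Mtm1-/y diaphragm (DESeq2 adjusted p = 0.000742). The noncoding 4930512H18Rik had a difference of -5.03 ± 1.27 (DESeq2 adjusted p = 0.00995) and was not called without Mtm1-/y diaphragm 4 or WT heart 4 (largest adjusted p = 0.149), nor with the atrial covariate (0.709) or without the hepatocyte-rich diaphragms (0.0825). Muc15, a membrane mucin, was at 0.215, 0.284, 0.454 and 0.178 CPM in WT and 4.30, 1.61 and 9.29 CPM in Mtm1-/y diaphragm and at 0.150 CPM or less in every heart (difference -4.51 ± 0.84, DESeq2 adjusted p = 0.00199).

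Over the 36 hepatocyte markers the median difference was 2.48, with 31 positive and 0 called on all libraries, and the medians were 2.15 in the heart and -0.36 in the diaphragm. Alb, albumin, was at 26500, 17650, 292 and 19200 CPM in WT and 1677, 33670 and 562 CPM in Mtm1-/y diaphragm, and at 25.1, 0.950, 2.59 and 2.79 and 103, 46.9, 28.2 and 36.8 CPM in WT and Mtm1-/y heart (difference 3.19 ± 1.98, DESeq2 adjusted p = 0.456). Every Mtm1-/y heart held more Alb than every WT heart, at a level far below that of the diaphragms, and the diaphragm groups overlapped. The other most abundant markers, Ttr, Serpina3k and Ahsg, had differences of 2.39 ± 1.74, 2.15 ± 1.75 and -1.56 ± 1.81 (DESeq2 adjusted p = 0.638, 0.695 and 0.833), and Mup3, a major urinary protein, of 3.31 ± 1.86. In the hearts these 5 genes were at 102.7 CPM or less, with Mup3 at 1.38 CPM in WT heart 1 and 0 to 0.127 CPM in the other WT hearts. Without Mtm1-/y diaphragm 2 the median was 5.19, and DESeq2 called 24 of the 36 above 1. The part of the level that hepatocytes would supply was over 10% in at least 1 diaphragm library for 8 of the 39 named calls below -1, among them Ccn4 (52.5%), Mthfd2 (43.9%), Itga5 (26.0%) and Tgfbi (25.8%), and for 4 of the 12 above 1, mt-Rnr2 (57.0%), Lnx1 (51.65%), mt-Rnr1 (43.6%) and Gm13340 (37.6%). Its part in these calls was not tested beyond the subtraction.

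Among the other marker and pathway lists DESeq2 called 0 genes, apart from those named above. All 14 B and plasma cell genes had a positive difference (median 1.32, Ighd, the heavy chain of immunoglobulin D, at 1.67 ± 0.56). Their summed level overlapped in the diaphragm, at 98.6 to 1370 CPM in WT and 116 to 352 CPM in Mtm1-/y. WT diaphragms 1 and 4, both hepatocyte-rich, were the highest (833 and 1370 CPM), and WT diaphragm 3 was below every Mtm1-/y diaphragm. Ighm, the heavy chain of immunoglobulin M, chosen after its values were seen, was at 435, 107, 53.9 and 769 CPM in WT and 191, 182 and 62.8 CPM in Mtm1-/y diaphragm, a wide overlap (difference 1.33 ± 0.95). The medians were 1.30 for 8 erythroid genes (Hbb-bt at 1.48 ± 0.68), 0.75 for 6 neutrophil genes (Lcn2 at -0.67 ± 0.40), 0.39 for 12 endothelial genes (Flt1 at 0.66 ± 0.20), 0.08 for 10 brown adipocyte genes (0.33 without Mtm1-/y diaphragm 2, Dio2 at -1.86 ± 0.56), -0.36 for 15 skeletal myofibre genes (0.07 without WT heart 4, Acta1 at 1.31 ± 0.72), and -0.15 for 10 Schwann cell genes (Pmp22 at -0.54 ± 0.26) and for 4 melanocyte genes (-0.28 without WT heart 4 and -0.30 without Mtm1-/y diaphragm 2, Kit at 0.53 ± 0.39). Lists of surrounding tissue were lower in the hearts than in the diaphragms, except for mesothelial genes in WT heart 4. They were 12 mesothelial genes (median difference -0.96 and -0.29 without WT heart 4, Upk1b at -1.27 ± 0.77) and 10 cartilage and tendon genes (median -1.87, Chad at -5.01 ± 1.48). The summed mesothelial level was 97.9 to 525.4 CPM in WT and 66.1 to 258.3 CPM in Mtm1-/y heart. In the diaphragm it was 352 to 570.4 CPM in WT and 539.2 to 566.9 CPM in Mtm1-/y. WT heart 4, the highest heart, was within the WT diaphragm range. Among lists of regulators, the median was -0.02 for 18 clock genes, 0.36 without WT heart 4 and 0.20 without Mtm1-/y diaphragm 2. For 18 glucocorticoid-responsive genes (Mt2 at -2.65 ± 0.87) it was -0.10, -0.14 and -0.02, and for 12 polyamine genes (Azin1 at -0.68 ± 0.30) -0.04, 0.08 and 0.11, in the same order. It was -0.40 for 23 mitosis and replication genes (Mcm7 at -0.38 ± 0.17) and -0.61 without Mtm1-/y diaphragm 2.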

How the data were processed

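Poly-A RNA of whole heart and diaphragm was sequenced as stranded libraries with single-end reads. After trimming (cutadapt 1.10) and alignment (STAR 2.5.3a, mm10) the authors counted reads per Ensembl gene (HTSeq 0.6.1p1) and deposited the raw counts. Columns were matched to samples by title. Genes were kept with filterByExpr (count minimum 10), scaled by TMM and fitted with edgeR 4.0.16 (R 4.3.3, quasi-likelihood, 1 coefficient per group), with a contrast of the genotype effects. Genes were called at a Benjamini-Hochberg adjusted p under 0.05 and an absolute difference over 1. DESeq2 1.42.0, limma 3.58.1 voom and the settings of the closing section were alternatives. The fits were checked on simulated counts with the same spread in both tissues and no uneven hepatocyte or atrial RNA. That check cannot show how the fits behave with libraries as unequal as these. The DESeq2 counts, the fits without hepatocyte-rich libraries and the atrial covariate were chosen after seeing the data. Liver-specific genes had at least 200 CPM in WT liver and 200 times the level of WT gastrocnemius and heart.

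Genes and the 44 lists were chosen with earlier results of these data known. Named genes were those called by edgeR, up to 12 with the largest DESeq2 difference per direction (group mean of 5 CPM or more, not liver-enriched), up to 3 DESeq2 calls or else the gene of smallest p per list, the 4 hepatocyte markers highest in WT liver, and genes named by the study. mt-Co1, Bmp10, Myl7, Myl4, Sln, Ighm, Thbs4 and Tnc were added after their values were seen. A few genes that these rules name are not reported here. Counts limit the precision of low genes, and p-values measure the spread between these libraries, which includes their unequal hepatocyte and atrial RNA. Each gene had a single dispersion for both tissues. The biological coefficient of variation, a measure of the spread between replicate libraries, was 0.208 for the hearts alone and 0.394 for the diaphragms alone. In the joint fit it was 0.316.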

Additional observations from a re-analysis of the deposited data

Results flagged for a closer look

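The genotype effect on Gm13340 differed between heart and diaphragm by 1.732 on the log2 scale, by edgeR's interaction test.

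Among 288 groups of 4 libraries, 23 had a library that stood apart from the other 3 by Dixon's test, which chance does in about 1 of 20 independent groups. Atrial genes gave 8 of the 23. These genes rise and fall together, and Myl7, Myl4, Sln and Bmp10 were added after their values were seen. The count is therefore not a test against chance. In WT heart 4 Nppa was at 19100 CPM (660.9 to 2445 in the other WT hearts), Myl7 at 4968 CPM (45.55 to 854.7) and Myl4 at 5638 CPM (51.22 to 881.8). In Mtm1-/y heart 2 Nppa was at 3117 CPM (148.2 to 635.6 in the other Mtm1-/y hearts), Myl7 at 1284 CPM (1.303 to 9.668), Myl4 at 1217 CPM (4.969 to 12.48), Sln at 313.1 CPM (0.1222 to 2.284) and Bmp10 at 4.54 CPM (0 to 0.647). WT heart 4 also stood apart for Ankrd1 at 3659 CPM (589.8 to 720.0) and Mybph at 0.5067 CPM, and Mtm1-/y heart 2 for mt-Co1 at 47170 CPM (51400 to 51760), 4930512H18Rik at 0.5575 CPM and Myh8 at 0.2788 CPM.

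WT heart 1 had the highest hepatocyte share of the WT hearts, 0.04601% (0.005668% to 0.01228% in the others), with Alb at 25.05 CPM (0.9503 to 2.787), Serpina3k at 4.151 CPM and Mup3 at 1.384 CPM. Lum was at 114.6 CPM (95.22 to 98.13) and Muc15 at 0.03633 CPM (0.1142 to 0.1222) in Mtm1-/y heart 1. The flags of Muc15, Mybph, Myh8 and 4930512H18Rik in the hearts rest on few counts.

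In the diaphragm Dnm1 was at 15.51 CPM (11.19 to 11.84) and Cx3cl1 at 6.166 CPM (4.113 to 4.461) in WT diaphragm 3, and Cthrc1 at 0.7138 CPM (0.2364 to 0.2766) and Azin1 at 76.67 CPM (97.72 to 99.57) in WT diaphragm 4.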

How the results depend on the processing

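edgeR called 1 gene on all 15 libraries. The count was 175 by DESeq2, 444 by limma voom with quality weights, 45 with all 30 libraries in one fit, 11 with the hepatocyte share as a covariate and 6 with the hepatocyte part subtracted. Leaving out 1 library gave 0 to 221 edgeR calls, with 221 without Mtm1-/y diaphragm 2. Settings added after seeing the data gave 7 without the 4 hepatocyte-rich diaphragms, 177 with subtraction and without Mtm1-/y diaphragm 2, 106 by voom with subtraction and 0 with the atrial covariate. DESeq2's count was 331 with subtraction, 23 with the atrial covariate and 54 (without Mtm1-/y diaphragm 4) to 893 (without Mtm1-/y diaphragm 2) with 1 library left out. It was also over 1.5 times away without WT diaphragm 2 (98), Mtm1-/y diaphragm 1 (100), WT heart 2 (340), WT heart 4 (113) and Mtm1-/y hearts 2 (293), 3 (116) and 4 (104). The cause was not tested.

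With the replicate number as a block edgeR called 4 genes, Gm13340 not among them (adjusted p = 0.0587), and with a replicate block within genotype 0 (1610 at an unadjusted p under 0.05, Gm13340 at an adjusted p of 0.247). Deviations of same-numbered hearts and diaphragms correlated at 0.0017 to 0.24, not above 0.1 in every pair, so the numbers were not taken as pairs. Whether they mark the same mice is not given in the sources used here.

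Some named genes without a call changed sign. Without the 4 hepatocyte-rich diaphragms the difference of Arrdc4 was -0.1375, that of Serpina3k -0.5293, that of Dnm2 0.04455 and that of Ighm -1.158. With the atrial covariate in edgeR it was 0.3687 for Upk1b and -0.07388 for Kit. The difference of Ahsg was 1.664 by voom, 0.4903 with the block within genotype, 1.032 with the atrial covariate, 7.552 with subtraction and without Mtm1-/y diaphragm 2, and -2.105 to 1.618 with 1 library left out. The difference of Mstn was -0.2007 by voom, -0.07081 with the replicate block and -0.3156 to 0.4508 with 1 library left out. With subtraction the difference of Mtm1 was 0.2322 (0.6781 by voom), where the WT livers used for subtraction carry Mtm1, and the difference of Serpina3k was -7.422 by voom. The difference of Arrdc2 was -0.04175 to 0.6124 with 1 library left out, and the difference of Dnm2 was -0.06862 to 0.003828, and 0.0185 with subtraction and without Mtm1-/y diaphragm 2.

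Of the other values of named genes, 2649 kept direction and side of the threshold, 244 passed where the edgeR value had not, and 12, all of Gm13340, were lost. Low genes in the hearts rest on few counts, and Mtm1-/y diaphragm has 3 libraries.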

Other observations

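The gastrocnemius, a limb muscle with 4 WT and 4 Mtm1-/y libraries of the same study, shares no library with the heart minus diaphragm contrast and held at most 0.0817% hepatocyte RNA. Values are log2 fold changes of Mtm1-/y over WT ± SE with edgeR's adjusted p for that muscle alone. Of the sarcomere and denervation genes, Ankrd1 was at 4.52 ± 0.38 (adjusted p = 9.49e-05), Csrp3 at 2.39 ± 0.35 (0.00112), Myh3 at 3.81 ± 0.49 (0.000584) and Mustn1 at 3.02 ± 0.25 (9.49e-05). Of the matrix and signalling genes, Postn was at 2.90 ± 0.34 (edgeR adjusted p = 0.00042), Timp1 at 3.35 ± 0.34 (0.00023), Cthrc1 at 3.58 ± 0.58 (0.00178), Ltbp2 at 3.19 ± 0.36 (0.000344) and Cx3cl1 at 3.34 ± 0.24 (4.38e-05). Gm13340 was at -0.26 ± 0.13 (edgeR adjusted p = 0.169) and mt-Rnr1 at -0.49 ± 0.14 (0.0277). Of the 39 genes described above as DESeq2 calls below -1, 30 were positive in the gastrocnemius at an edgeR adjusted p under 0.05, 1 was negative and 8 did not pass. Ryr3 was the negative one, at -1.26 ± 0.22 (0.00278). Those that did not pass were Ccn4 at 0.39 ± 0.38 (edgeR adjusted p = 0.469), Col1a1 at 0.34 ± 0.57 (0.691), Col12a1 at 0.73 ± 0.55 (0.348), Col11a1 at 0.27 ± 0.71 (0.799), Mybph at 0.19 ± 0.23 (0.564), Thbs4 at 0.87 ± 0.41 (0.135), Mthfd2 at 0.33 ± 0.17 (0.181) and A930003A15Rik at 0.47 ± 0.18 (0.0741). Of the 12 above 1, 7 were negative and passed and 5 did not pass. Whether these effects differ from those of the diaphragm was not tested. The share of all genes tested that pass in the gastrocnemius is not given here, so these counts have no background beside them. The genes and lists were chosen with earlier results of these data known, and some were named by the study, which used this muscle. The counts are therefore not an independent check.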
